A study of Homo sapiens with 18 samples.

Results

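The 4 HOX gene clusters of NB4 cells were examined for 3 histone marks, H3K4me3, H3K9me3 and H3K27ac. NB4 is an established human cell line derived from acute promyelocytic leukemia, a blood cancer arrested at the promyelocyte stage. Cells were either left untreated or kept for 24 h with maltonis, a synthetic derivative of maltol, at 10 µM, and no other agent distinguished the conditions. Each mark was profiled by chromatin immunoprecipitation followed by sequencing (ChIP-seq) with 3 replicates of each condition. The 18 libraries thus form 6 groups, all from this single line. The clusters were chosen by position, as 4 windows on the hg19 build. HOXA was chr7:27130000-27250000 (120 kb), HOXB was chr17:46600000-46810000 (210 kb), HOXC was chr12:54330000-54450000 (120 kb) and HOXD was chr2:176950000-177060000 (110 kb). A member was any peak, meaning a stretch called as enriched in one library, that overlapped a window. There were 380 such peaks of 501863 in all lists, of which 153 were in HOXA, 24 in HOXB, 123 in HOXC and 80 in HOXD. The windows belong to 38 listed HOX genes, 10 in HOXA, 10 in HOXB, 9 in HOXC and 9 in HOXD. No hg19 gene annotation was used here, so peaks are given by position and by their side of a cluster, and no peak is assigned to a single gene.

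HOX genes encode homeodomain transcription factors that give cells their position along the body axis, and they lie in 4 clusters in which the order of the genes follows the order of their use in the embryo. In blood, HOXA9 and HOXA10 are active in stem and progenitor cells and are turned down as cells mature, and HOXB4 is known for its role in the self-renewal of hematopoietic stem cells. HOXA9 is highly expressed in many acute myeloid leukemias, above all those with rearranged KMT2A. H3K4me3 marks promoters that are active or ready for use, H3K27ac marks active promoters and enhancers, and H3K9me3 is a mark of repressed chromatin. In the RefSeq order of the genes, increasing coordinates run from HOXA2 to HOXA13, from HOXB1 to HOXB13, from HOXC13 to the genes HOXC6, HOXC5 and HOXC4, and from HOXD13 to HOXD1. Distances below are in kb from the lower end of each window.

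The promoter sequences of 1 gene per cluster are shown because H3K4me3 is known to sit at promoters rich in the dinucleotide CG. They are RefSeq promoters of the GRCh38.p14 build, each 300 bases from 250 before to 50 after the transcript start, read 5′ to 3′ along the gene, with every CG in capitals. Their coordinates belong to another build than the peaks and cannot be set beside them. HOXA9, the leukemia-associated gene named above, is at chr7:27165488-27165787 on the minus strand. HOXB1, which acts in hindbrain patterning, is at chr17:48530962-48531261 on the minus strand. HOXC4, whose start is shared with HOXC5, is at chr12:54016638-54016937 on the plus strand. HOXD13, a gene of the limb and digits at the low-coordinate side of HOXD, is at chr2:176092471-176092770 on the plus strand.
HOXA9: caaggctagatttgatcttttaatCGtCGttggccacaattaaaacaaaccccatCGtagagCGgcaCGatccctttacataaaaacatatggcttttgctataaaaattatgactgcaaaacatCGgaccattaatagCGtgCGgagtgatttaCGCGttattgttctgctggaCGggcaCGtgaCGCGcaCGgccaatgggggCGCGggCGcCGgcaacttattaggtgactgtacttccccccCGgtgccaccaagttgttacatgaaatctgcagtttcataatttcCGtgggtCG
HOXB1: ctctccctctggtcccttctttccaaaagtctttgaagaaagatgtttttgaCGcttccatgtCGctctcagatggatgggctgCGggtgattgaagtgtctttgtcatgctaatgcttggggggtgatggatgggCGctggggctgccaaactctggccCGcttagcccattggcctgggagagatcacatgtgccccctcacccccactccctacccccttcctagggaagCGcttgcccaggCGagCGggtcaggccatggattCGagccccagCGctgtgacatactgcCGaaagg
HOXC4: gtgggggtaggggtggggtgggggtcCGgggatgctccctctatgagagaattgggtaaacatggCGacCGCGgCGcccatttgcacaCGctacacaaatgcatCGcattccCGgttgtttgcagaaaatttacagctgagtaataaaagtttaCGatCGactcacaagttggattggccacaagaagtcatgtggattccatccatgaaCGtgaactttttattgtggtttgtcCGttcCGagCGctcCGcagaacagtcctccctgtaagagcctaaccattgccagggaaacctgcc
HOXD13: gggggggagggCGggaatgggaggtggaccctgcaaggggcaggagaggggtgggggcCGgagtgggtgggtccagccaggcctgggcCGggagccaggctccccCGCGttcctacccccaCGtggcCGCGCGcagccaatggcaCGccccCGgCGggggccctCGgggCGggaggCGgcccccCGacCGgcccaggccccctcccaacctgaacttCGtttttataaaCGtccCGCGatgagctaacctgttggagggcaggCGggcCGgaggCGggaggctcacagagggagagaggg

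These promoters held 22 (HOXA9), 11 (HOXB1), 15 (HOXC4) and 24 (HOXD13) CG dinucleotides, against a median of 14 over the 35116 promoters of the table. CG reads the same on both strands. A promoter was at hand for 20 of the 38 genes, in 26 distinct sequences whose median was 22.5 and which ranged from 0 at an alternative start of HOXA3 to 44 at HOXA13, a gene of the most posterior body parts. At least 44 CG were found in 4.19% of all promoters. The letters TATAAA, on either strand, were in 5 of the 26 sequences and in 11.5% of all promoters. The 5 included HOXA9, HOXA10 and HOXD13. Matches of letters are a description of these windows of sequence only.

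The clusters differed in how much of each mark they carried. In untreated cells H3K27ac covered 72.7% ± 4.4 of the HOXA window (SD, n = 3), 44.2% ± 2.46 of HOXC, 16.7% ± 2.45 of HOXD and 1.75% ± 0.306 of HOXB, against 7.63% ± 0.212 of the chromosomes in the same lists. H3K4me3 covered 13.7% ± 1.63 of HOXA, 8.73% ± 1.64 of HOXC, 7.11% ± 1.48 of HOXD and 1.23% ± 0.283 of HOXB, against 0.822% ± 0.00765 of the chromosomes. H3K9me3 covered 34.5% ± 5.03 of HOXA, 17.2% ± 0.420 of HOXD, 11.1% ± 1.75 of HOXC and none of HOXB, against 5.70% ± 0.153 of the chromosomes. In each untreated library HOXA therefore led for all 3 marks and HOXB was last. For H3K4me3 HOXC was above HOXD within each of the 6 libraries, though the ranges over untreated libraries overlapped, at 7.63% to 10.6% in HOXC and 5.96% to 8.79% in HOXD. For H3K27ac and H3K9me3 no untreated library of HOXC overlapped one of HOXD. Windows of one library share that library and were compared without a test.

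**Figure D1:**
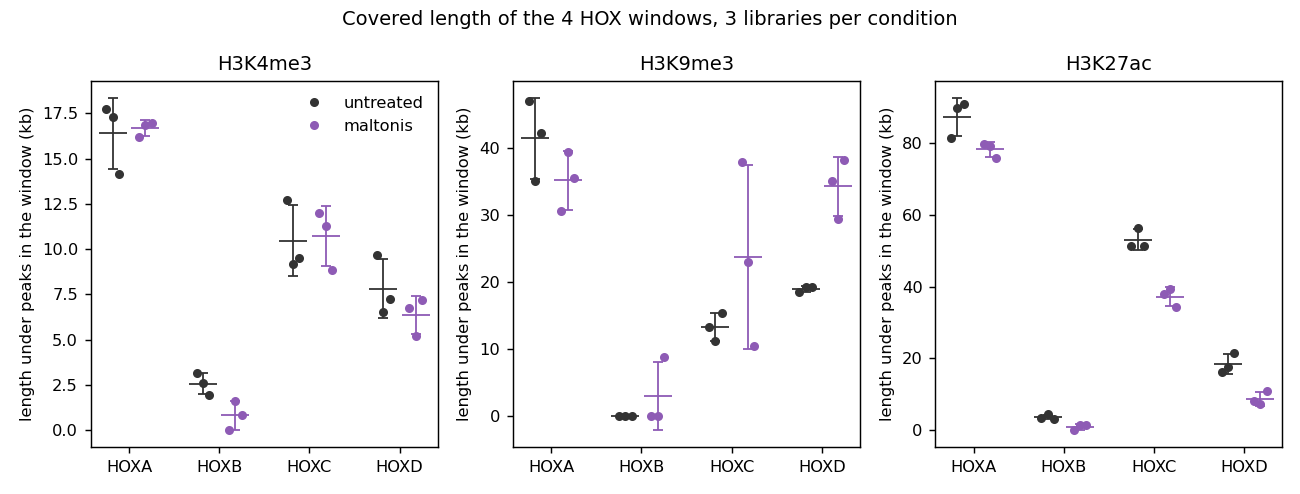
Length under peaks (kb, vertical axis) in each HOX window for the 3 marks. Points are libraries, 3 per condition, long dashes are means and bars are SD. For H3K27ac the maltonis libraries lie below the untreated ones in every window, and for H3K9me3 they lie above in HOXD.

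After maltonis the length under H3K27ac was shorter in all 4 windows, the length under H3K9me3 was longer in HOXD, and the length under H3K4me3 was shorter in HOXB. Untreated and maltonis libraries did not overlap in these 6 of the 12 combinations of mark and window, each with p = 0.1 in the exact two-sided permutation test over libraries. That is the smallest p that 3 against 3 libraries can give, so no such comparison could reach 0.05. The whole H3K27ac lists did not overlap either, at 218, 230 and 227 Mb untreated and 185, 183 and 172 Mb after maltonis. The H3K27ac lengths of the 4 windows thus went the way of the lists. Mean list length went from 168 to 160 Mb for H3K9me3 and from 24.2 to 25.9 Mb for H3K4me3. Other windows of the genome were not counted in this way. Summed over the 4 windows, H3K27ac covered 162.3 ± 8.98 kb (SD, n = 3) in untreated and 125.1 ± 2.44 kb in maltonis libraries. H3K9me3 covered 73.6 ± 7.16 kb in untreated and 96.0 ± 6.43 kb in maltonis libraries, which did not overlap either. H3K4me3 covered 37.3 ± 5.40 kb and 34.6 ± 0.618 kb, and these overlapped (exact permutation p = 0.7).

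The length under H3K27ac, the mark of active promoters and enhancers, shrank least in HOXA and most in HOXB and HOXD, relative to its untreated mean. HOXA held 81.2, 89.8 and 90.8 kb in the untreated and 79.6, 79.2 and 75.8 kb in the maltonis libraries. HOXC held 51.2, 56.4 and 51.4 kb in the untreated and 37.8, 39.4 and 34.4 kb in the maltonis libraries. HOXD held 16.2, 17.6 and 21.4 kb in the untreated and 8.2, 7.2 and 10.8 kb in the maltonis libraries. HOXB held 3.4, 4.4 and 3.2 kb in the untreated libraries, none in maltonis replicate 1 and 1.40 kb in each of the other two. The mean after maltonis was thus 89.6% of the untreated mean in HOXA, 70.2% in HOXC, 47.5% in HOXD and 25.5% in HOXB. The H3K27ac lists as a whole also shrank, from a mean of 225 to 180 Mb. Relative to the share of the chromosomes covered in the same library, HOXA rose from 9.52 ± 0.345 to 10.7 ± 0.135 times (SD, n = 3), while HOXC went from 5.79 ± 0.230 to 5.07 ± 0.194 times and HOXD from 2.19 ± 0.294 to 1.31 ± 0.331 times. The conditions did not overlap in any of these ratios. The direction in HOXA thus depended on whether the length was taken by itself or relative to the list.

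H3K27ac reads per kb of called peak were higher in maltonis libraries in HOXA, HOXC and HOXD, as over the whole lists, and lower in HOXB. They went from 141 ± 8.13 to 167 ± 14.4 in HOXA (SD, n = 3), from 83.3 ± 1.14 to 101 ± 9.02 in HOXC and from 158 ± 13.5 to 252 ± 61.9 in HOXD. In HOXB they were 57.9, 52.3 and 65.3 in the untreated libraries and 40.7 and 39.3 in the 2 maltonis libraries with a peak. The same ratio over the whole lists went from 88.8 ± 0.415 to 107.6 ± 9.06. As a share of all reads in H3K27ac peaks of the library, HOXA went from 0.0645% ± 0.000792 to 0.0688% ± 0.000319, HOXC from 0.0221% ± 0.000642 to 0.0194% ± 0.000365, HOXD from 0.0153% ± 0.000691 to 0.0119% ± 0.000673 and HOXB from 0.00106% ± 6.18e-05 to 0.000187% ± 0.000162. The conditions did not overlap in any of these values of the clusters.

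**Figure D2:**
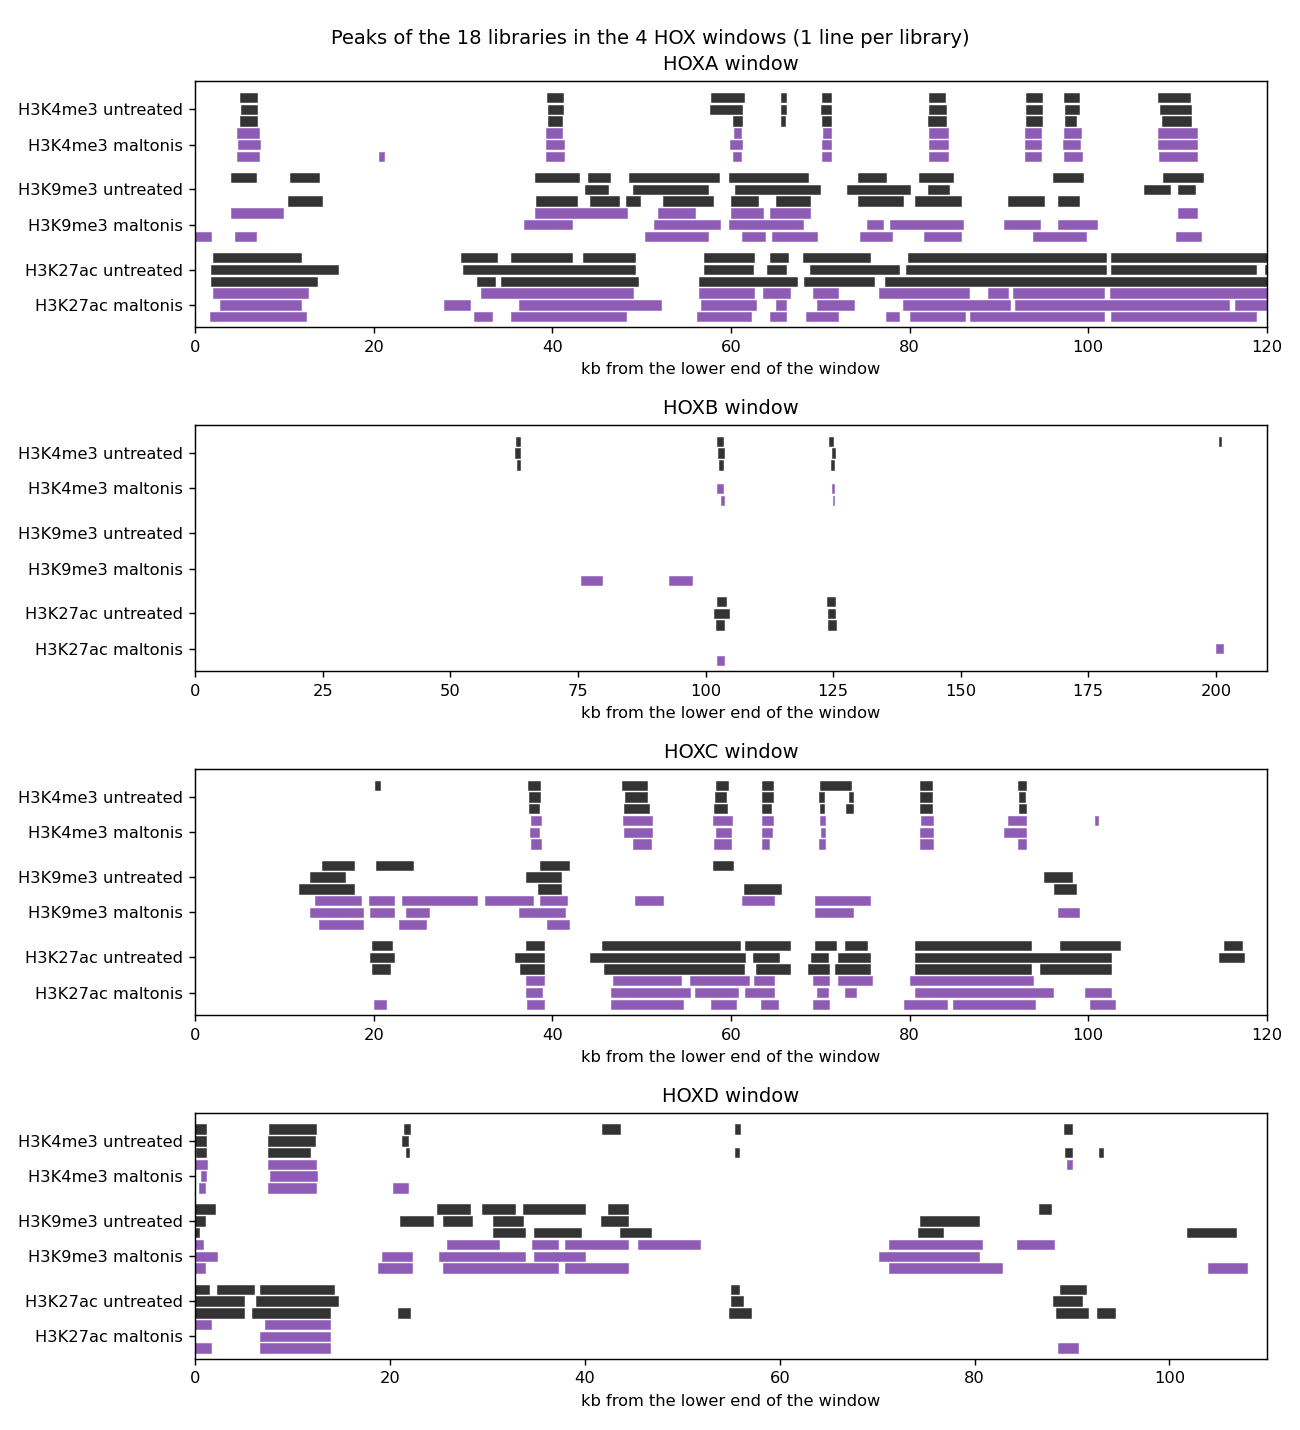
Peaks of all 18 libraries along the 4 windows, with distance from the lower end of the window in kb on the horizontal axis and 1 line per library, grouped by mark and condition (untreated dark, maltonis purple). HOXA is covered along most of its length, HOXB holds a few short peaks, and the HOXD H3K27ac peaks lie mostly within 15 kb of the low end.

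Overlapping H3K27ac peaks of the 6 libraries were merged into regions, and the reads of regions called in every library were compared with edgeR. To pass, a region needed a false discovery rate (FDR) no higher than 0.01 together with a log2 fold change of 0.58 or more, up or down. Of 9 such HOX regions, 1 rose and 2 fell after maltonis. Over all 20018 regions, 8.18% rose and 19.2% fell, so the HOX shares were close to those of the genome. The median log2 fold change was -0.25 over the 9 HOX regions and -0.01 over all regions.

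The region that rose lay at the low end of the HOXA window, towards HOXA2, a gene of hindbrain patterning, at chr7:27131601-27146000. It held 1022, 1145 and 999 reads in the untreated and 1540, 1746 and 1649 reads in the maltonis libraries. All maltonis libraries were above all untreated ones, and the log2 fold change was 0.68 ± 0.049 (SE, edgeR FDR = 2.04e-06). Its called length overlapped between conditions, at 9.80, 14.2 and 11.8 kb untreated and 10.6, 9.0 and 10.8 kb after maltonis. With the called length as an offset the log2 fold change was 0.75 ± 0.13 (edgeR FDR = 0.0045), so the region passed in both fits.

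Both regions that fell were in HOXC. The first, chr12:54365801-54369000, lay 35.8 to 39.0 kb from the HOXC13 side and held 241, 285 and 250 reads in untreated and 155, 164 and 137 reads in maltonis libraries. Its log2 fold change was -0.72 ± 0.14 (SE, edgeR FDR = 0.0013). The second, chr12:54398601-54405800, held 262, 289 and 285 reads and then 168, 152 and 96 reads, which gave a log2 fold change of -0.96 ± 0.21 (FDR by edgeR 0.0024). In both regions every maltonis library was below every untreated one. With the called length as an offset neither passed, with log2 fold changes of -0.43 (FDR = 0.060) and -0.23 (FDR = 0.43), so both calls depended on that choice. The called lengths were 2.0, 3.2 and 2.6 kb untreated and 2.0, 1.8 and 1.8 kb after maltonis in the first region, and 4.8, 5.4 and 6.4 kb and then 5.6, 2.4 and 1.8 kb in the second. In each the conditions overlapped in length.

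The strongest H3K27ac region of the 4 clusters spanned the upper part of HOXA, from 68.0 kb to beyond the end of the window near HOXA13, chr7:27198001-27258600. Its island score stood at a mean percentile of 99.3 of its lists. It held 9935, 9996 and 10320 reads in the untreated and 9118, 10742 and 9890 reads in the maltonis libraries, which overlapped (log2 fold change 0.02 ± 0.021, edgeR FDR = 0.44). Its called length was 55.2, 56.0 and 58.4 kb in the untreated and 45.4, 49.8 and 42.4 kb in the maltonis libraries, shorter in every maltonis library. The strongest HOXD region, chr2:176948401-176964600 at the HOXD13 side, stood at a mean percentile of 98.0. It held 2704, 2833 and 2846 reads and then 2166, 2329 and 2346 reads, and its length went from 13.6, 14.8 and 14.2 kb to 9.80, 7.20 and 9.40 kb. Both reads and length were lower in every maltonis library. The log2 fold change of its reads, -0.25 ± 0.035 (edgeR FDR = 0.000154), did not reach the fold limit. With the called length as an offset it was 0.30 ± 0.097 (FDR = 0.050), of opposite sign. The strongest HOXC region, chr12:54409401-54433600 at the HOXC4 side, had a log2 fold change of 0.16 ± 0.055 (FDR = 0.026), and its length was also shorter in every maltonis library. In all, 4 of the 9 HOX regions were shorter in every maltonis than in any untreated library and 0 were longer, against 28.2% and 3.84% of all regions.

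**Figure D3:**
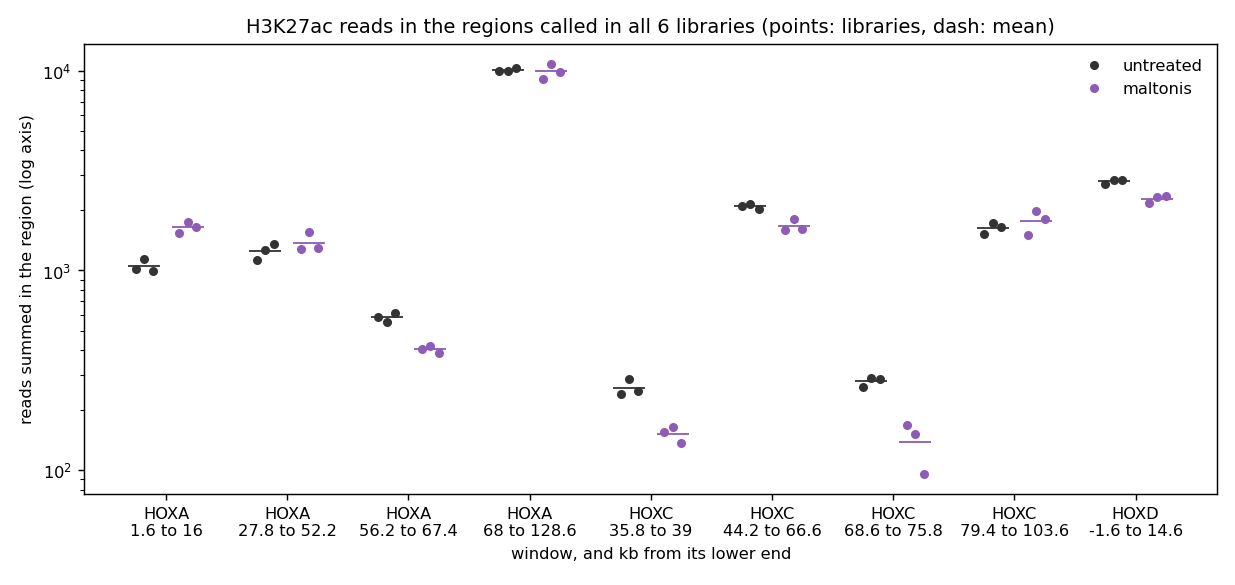
H3K27ac reads summed per library (vertical log axis) in the 9 HOX regions called in all 6 libraries, named by window and kb from its lower end. Points are libraries and dashes are means. The HOXA region at 1.6 to 16 kb is higher in all 3 maltonis libraries, and the HOXC regions at 35.8 to 39 kb and 68.6 to 75.8 kb are lower in all 3.

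Further H3K27ac regions were called in one condition only. Of 18 merged HOX regions, 2 were called in all 3 untreated and no maltonis library and 0 in the reverse direction, against 6.04% and 1.65% of all regions. One lay in HOXB at chr17:46723801-46725600, with 65, 79 and 71 reads in the untreated libraries. The other lay in HOXD at chr2:177004801-177007000, with 47, 58 and 78 reads. Both were weak, at mean percentiles of 17.1 and 8.01 of their lists. The strongest HOXB region, chr17:46701601-46704600, held 132, 151 and 138 reads in the untreated libraries and was called with 55 reads in maltonis replicate 3 alone. Counted in bases, 11600 of the 194000 HOX bases under any H3K27ac peak were covered in all untreated and no maltonis library, and 0 were covered the other way round. Over all chromosomes these shares were 4.91% and 0.724%. The longest such stretches were 2.80 kb each, in HOXC at chr12:54426801-54429600 and in HOXD at chr2:176952201-176955000.

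Called lengths do not measure the amount of a mark in the cells. By mass spectrometry at this dose and time, the paper found bulk H3K9me3 lower and H3K4me3 and H3K27ac higher. H3K9me3, the repressive mark, was the only one of the 3 whose covered length was larger after maltonis in the sum of the windows. HOXD was the window where the conditions separated. HOXD held 18.4, 19.2 and 19.2 kb in the untreated and 35.0, 29.4 and 38.2 kb in the maltonis libraries. The mean after maltonis was 181% of the untreated mean. Relative to the share of the chromosomes it went from 3.02 ± 0.0228 to 5.82 ± 1.28 times (SD, n = 3), while the lists as a whole covered 5.70% ± 0.153 and 5.42% ± 0.534 of the chromosomes. HOXC held 13.2, 11.2 and 15.4 kb in the untreated and 37.8, 23 and 10.4 kb in the maltonis libraries, so the conditions overlapped through maltonis replicate 3 (exact permutation p = 0.4). HOXA held 47.0, 35.0 and 42.2 kb and then 30.6, 39.4 and 35.4 kb, which overlapped as well (exact permutation p = 0.3). HOXB had no H3K9me3 peak in 5 libraries and 8.80 kb in maltonis replicate 3.

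Within HOXD the H3K9me3 peaks were called most often in 3 regions. At the HOXD13 side, partly over the strongest H3K27ac region, a region across the window's end, chr2:176943001-176952200, was called in all 6 libraries at a mean percentile of 89.0. It held 149, 169 and 169 reads in the untreated and 128, 137 and 137 reads in the maltonis libraries (log2 fold change -0.15 ± 0.17, edgeR FDR = 0.77). The 2 other regions were picked after their values were seen. In chr2:176974801-177001800, 24.8 to 51.8 kb along the window, the untreated libraries held 217, 136 and 160 reads and the maltonis libraries 320, 219 and 282 reads. The maltonis libraries were all above the untreated ones, but the log2 fold change of 0.80 ± 0.21 did not pass over all regions (edgeR FDR = 0.10). With the called length as an offset it was 0.19 ± 0.099 (edgeR FDR = 0.51). In chr2:177020201-177032800, nearer HOXD1, the untreated libraries had no peak, 89 reads and 37 reads and the maltonis libraries 146, 137 and 152 reads. H3K9me3 reads per kb of called peak in HOXD were 16.2 ± 0.320 before and 15.6 ± 0.690 after treatment (SD, n = 3), and the conditions overlapped. The H3K9me3 peaks of HOXD stood higher in their lists after maltonis. Their median score percentile was 35.0 ± 3.17 before and 75.6 ± 6.14 after treatment (SD, n = 3), with no overlap. The same measure was higher in HOXA, from 32.3 ± 7.13 to 52.4 ± 9.26, again with no overlap between conditions, although the HOXA length was not longer. In HOXC the measure was 47.6 ± 13.3 before and 38.5 ± 2.44 after treatment, and there the conditions overlapped.

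No H3K9me3 region of the 4 clusters passed the criteria, of 6 called in all libraries. Over all 14226 regions edgeR called 0.253% higher and 0.0141% lower, and DESeq2 also called 0 of the 6. The number of higher regions over the genome, 36, ranged from 0 to 132 over the other fits at the same limits. At an unadjusted p of 0.05, 2 of the 6 passed, the HOXD region above and chr12:54341601-54348800 on the HOXC13 side, both higher after maltonis. Over all regions 14.1% passed at that p. The strongest HOXA region, chr7:27166801-27188800, held 301, 212 and 260 reads and then 236, 210 and 119 reads (log2 fold change -0.36 ± 0.20, edgeR FDR = 0.47). The strongest HOXC region, chr12:54399401-54405600, was called in 2 maltonis libraries only, with 102 and 74 reads. Its mean percentile of 64.3 is over those 2 lists, and a HOXC region called in all 6 libraries stood at 59.4. The strongest HOXB region, chr17:46692801-46697400, was called with 55 reads in maltonis replicate 3 alone. Of the 24 merged HOX regions none was particular to one condition, meaning called in its 3 libraries and in no other, against 2.32% (untreated alone) and 0.781% (maltonis alone) of all regions. None of the 6 shared regions separated by length, against 5.35% longer and 5.48% shorter after maltonis in the genome. In bases, 6200 of 188600 were covered in all maltonis and no untreated library and 1000 the other way round, against 0.837% and 1.28% over all chromosomes. The longest of these stretches was 3.00 kb at chr2:177021201-177024200 in HOXD. The H3K9me3 lists held 2595814 to 3366296 reads in peaks, against 17974940 to 20773316 for H3K27ac, and no H3K9me3 region of the windows held more than 320 reads in a library.

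The length under H3K4me3, the promoter mark, overlapped between conditions in 3 of the 4 windows. HOXA held 17.7, 17.3 and 14.2 kb in the untreated and 16.2, 16.9 and 17.0 kb in the maltonis libraries. HOXC held 12.7, 9.16 and 9.53 kb and then 12, 11.3 and 8.86 kb. HOXD held 9.67, 6.56 and 7.25 kb and then 6.76, 5.19 and 7.19 kb. The exact permutation p was 1 in HOXA, 1 in HOXC and 0.4 in HOXD. HOXB held 3.16, 2.60 and 1.97 kb in the untreated libraries, and 1.63 and 0.846 kb in maltonis replicates 2 and 3, with no peak in replicate 1. HOXB was thus the only window of the 4 where the H3K4me3 lengths separated, with every maltonis library below every untreated one. Its H3K4me3 peaks were few, 0 to 4 per library, and weak, none above percentile 37.9 of its list. The maltonis lists also held fewer H3K4me3 peaks, 16383, 15841 and 16003 against 17482, 17335 and 17755 untreated. A peak that was no longer called does not show that the mark was lost.

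H3K4me3 peaks carry a fold enrichment over the local background and no read count, and the fold enrichment was compared with limma on the log2 scale. Of 17 HOX regions called in all 6 libraries, 0 passed at the same limits, while 0.321% of all 12470 regions were higher and 0.409% lower. At an unadjusted p of 0.05, 10 of the 17 passed, against 39.7% of all regions. Without normalization between libraries the median of all regions moved from 0.01 to -0.14, and still 0 HOX regions passed. The strongest HOXA region, chr7:27212091-27214343, had fold enrichments of 4.55, 4.35 and 4.23 untreated and 4.01, 4.31 and 4.02 after maltonis, which overlapped (log2 fold change 0.06 ± 0.043 after normalization, limma FDR = 0.33). The strongest HOXC region, chr12:54411168-54412609 on the HOXC4 side, had 4.90, 4.93 and 4.31 and then 5.19, 5.06 and 5.10, higher in every maltonis library (log2 fold change 0.30 ± 0.056, limma FDR = 0.0095). The strongest HOXD region, chr2:176957423-176962446 on the HOXD13 side, had 3.06, 3.40 and 3.44 and then 2.59, 2.63 and 2.49, lower in every maltonis library (log2 fold change -0.31 ± 0.053, limma FDR = 0.0068). Both were under the fold limit of 0.58.

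Lengths of the H3K4me3 regions moved both ways. Of the 17 regions, 8 were longer in every maltonis than in any untreated library, 5 in HOXA and 3 in HOXC, against 54.8% of all regions. Another 2 were shorter, 1 in HOXA and 1 in HOXC, against 3.99%. Of the 30 merged HOX regions, 2 were called in all untreated and no maltonis library, against 1.66% of all regions. One was in HOXA at chr7:27195592-27196199, with fold enrichments of 2.09, 2.33 and 2.56. The other was chr17:46662734-46663594 on the HOXB1 side of the window's middle, with 4.14, 3.21 and 3.36. Its mean percentile of 29.6 over the lists that called it was the highest of HOXB. In each untreated library, however, it stood at a lower percentile (35.7, 24.3 and 28.7) than the 2 other HOXB regions called in all 3. No HOX region was called in maltonis libraries alone, against 0.836%. In bases, 1372 of 53446 were covered in untreated libraries alone and 2628 in maltonis libraries alone, against 1.16% and 4.33% over all chromosomes.

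**Figure D4:**
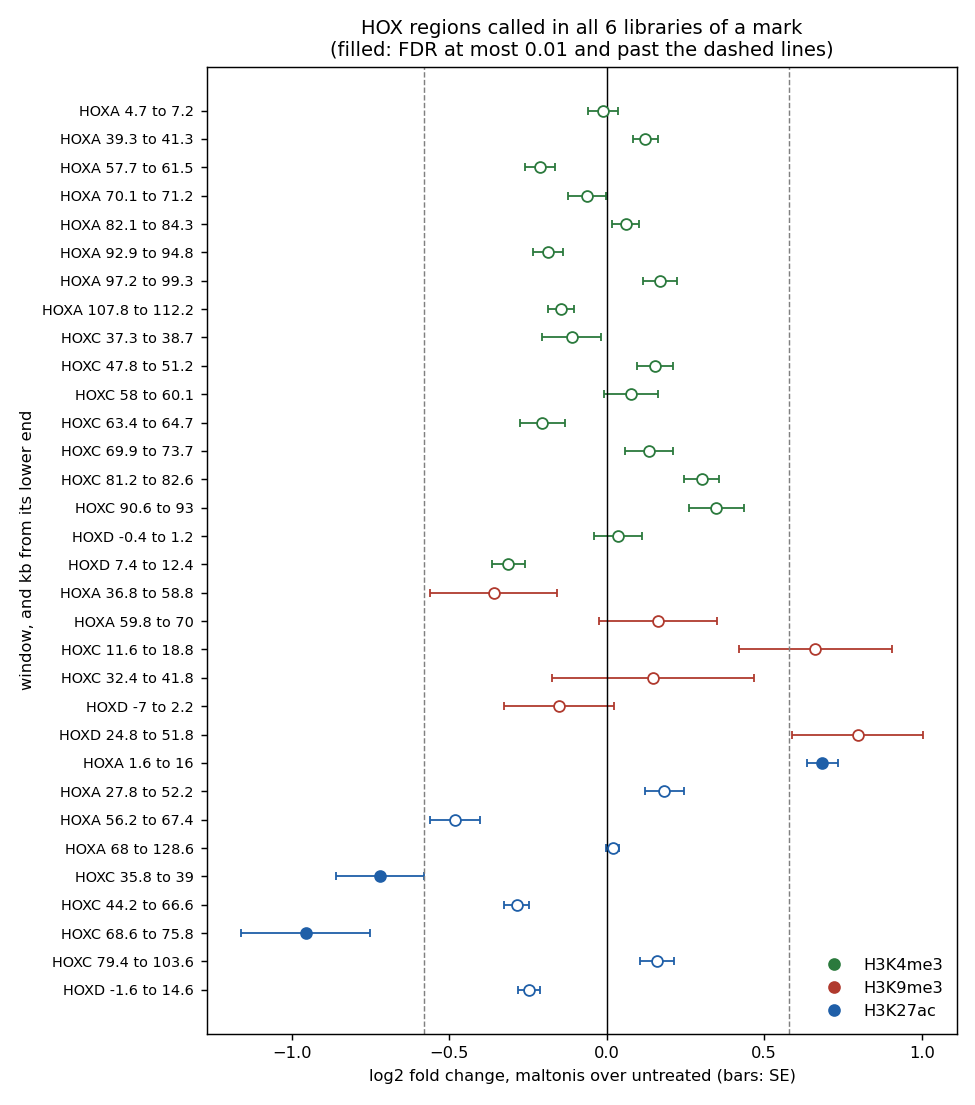
Log2 fold change, maltonis over untreated (horizontal axis, bars are SE), of the 32 HOX regions called in all 6 libraries of their mark, named by window and kb from its lower end. H3K4me3 values are fold enrichments (limma), the others reads (edgeR). The 3 filled H3K27ac points are the regions that passed, 1 in HOXA above and 2 in HOXC below the untreated level.

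The marks were then set over each other, on bases covered in at least 2 of 3 libraries of a condition. In HOXA and HOXC 100% of the H3K4me3 bases also lay under H3K27ac in both conditions, against 97.1% (untreated) and 97.3% (maltonis) over all chromosomes. In HOXD the share was 93.0% in untreated and 100% in maltonis cells. On bases covered in all 3 libraries it was 95.9% and 92.1%, so no direction after maltonis is given for HOXD. In HOXB, with at least 2 libraries, the share was 71.3% of 2342 bases in untreated and 0% of 640 bases in maltonis cells. No H3K27ac base of HOXB was shared by 2 maltonis libraries. H3K27ac reached far beyond H3K4me3, which covered 19.5% of the HOXA and 17.9% of the HOXC H3K27ac bases in untreated cells. In HOXD H3K4me3 covered 40.5% of the H3K27ac bases in untreated and 65.0% in maltonis cells, where H3K27ac had shortened from 17400 to 8800 bases.

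H3K9me3 shared bases with H3K27ac more in HOXA than in HOXD, but how much depended on how many libraries had to share a base. In HOXA 69.8% of the H3K9me3 bases lay under H3K27ac in untreated and 68.1% in maltonis cells, against 14.5% and 14.4% over all chromosomes. H3K27ac covered 72.7% and 65.2% of the HOXA window itself (means of 3 libraries). The HOXA shares were thus close to the coverage of that window, and show no preference of H3K9me3 for H3K27ac bases within it. Of the HOXA H3K4me3 bases 54.3% lay under H3K9me3 in untreated and 72.9% in maltonis cells, against 12.8% and 16.5%. H3K9me3 covered 34.5% and 29.3% of that window. On bases covered in all 3 libraries, the HOXA share of H3K9me3 under H3K27ac was 49.0% in untreated and 22% in maltonis cells, and that of H3K4me3 under H3K9me3 was 22.7% and 0%, so no direction after maltonis is given for either. Over all chromosomes the stricter shares were 11.4% and 12.4%, and 7.01% and 9.33%. H3K27ac covered 16.7% and 7.94% of the HOXD window. There 6.17% and 3.23% of the H3K9me3 bases lay under H3K27ac, against 14.5% and 14.4% over all chromosomes. On bases covered in all 3 libraries this HOXD share was 11.8% and 0%, against 11.4% and 12.4%. With at least 2 libraries, 13.2% and 11.6% of the HOXD H3K4me3 bases lay under H3K9me3, against 12.8% and 16.5%. In HOXC the share of H3K9me3 under H3K27ac was 27.1% and 18.2%, where H3K27ac covered 44.2% and 31.0% of the window. Each mark was measured in other libraries, so shared bases do not show that the marks were on the same chromosomes or in the same cells.

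Some marks lay mostly towards one end of a cluster, and others did not. In HOXD the lower 55 kb of the window, towards HOXD13, held at least 67.3% of the H3K27ac length in every library. In HOXA the upper 60 kb, towards HOXA13, held 59.5% to 63.9% of the H3K27ac and 66.6% to 75% of the H3K4me3 length. In HOXC the lower 60 kb, towards HOXC13, held at least 57.1% of the H3K9me3 length in every library, while the upper 60 kb, towards HOXC4, held 61.0% to 63.7% of the H3K27ac length. H3K4me3 was split about evenly in HOXC, with 42.3% to 53.0% in the upper 60 kb, and H3K9me3 had no constant side in HOXA, with 33.3% to 68.6% there. Bases without any of the 3 marks in any of the 18 libraries made up 92.4% of the HOXB window, 29.8% of HOXD, 28.8% of HOXC and 9.40% of HOXA. The longest bare stretch was 74.4 kb in HOXB, from 125.6 to 200 kb towards HOXB13, a gene known for its role in the prostate. The longest in HOXA was 6.69 kb. A stretch is bare where no peak was called, which does not show that the marks were absent.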

How the data were processed

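One peak list per library was used, 18 in all, and replicates had not been pooled. Groups and replicate numbers came from the sample labels, and the study describes biological triplicates. Per the labels, the build was hg19 and the processing tools were BWA, SAMtools, MACS2 and SICER, with no versions. The authors called H3K4me3 peaks with MACS2 in broad mode, and each deposited peak carries a score, a fold enrichment (a ratio over the local background) and −log10 p and q values. The authors' H3K9me3 and H3K27ac lists are in the format of epic2, which joins windows of 200 bp, and each deposited region carries a read count and an island score. These counts are not normalized and belong to the boundaries called in each library. Total reads and controls were not used here.

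Chromosomes 1 to 22 and X were used, and peaks were cut at the window ends for lengths. The share of chromosomes covered was taken over 2945 Mb, the span between the outermost peaks of each chromosome. Peaks of the 6 libraries of a mark were merged where they shared 1 bp. Strength is the percentile of the −log10 q or island score within its list. Reads summed per region were tested with edgeR (4.0.16, quasi-likelihood, TMM), fold enrichments with limma (3.58.1) after log2 and quantile normalization, both over all regions called in the 6 libraries, with Benjamini-Hochberg adjustment, in R 4.3.3. Standard errors of edgeR estimates were derived from its F statistic. No pseudocount was used in the main fit. On simulated data with 200 changed regions the fits were tested before use. Values per library went into exact permutation tests, two-sided, with 20 assignments. Named regions are those that passed a test or were called in one condition alone, plus the region of highest mean strength percentile per mark and window, and others are said to be picked after their values were seen. The windows, members and lists were chosen with earlier results of these data known. Alternatives are given in the closing section.

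RefSeq tables of GRCh38.p14 gave gene order and promoters. With no hg19 annotation, values per gene, HOX cofactor genes and promyelocyte markers were not analysed here, so the cell identity was not checked against markers.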

Additional observations from a re-analysis of the deposited data

How the results depend on the processing

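The direction and separation of the covered lengths held under most alternatives, and the exceptions follow, with maltonis minus untreated in kb. Their causes were not tested. With the strongest 75% of peaks, H3K4me3 was -0.71 in HOXA and -2.37 in HOXC (both positive before, HOXC now apart), -1.63 in HOXD (now apart), H3K9me3 in HOXA was 1.6 (negative before), and H3K27ac in HOXA was -10.3 with overlapping conditions. Equal numbers of peaks gave 0.133 for H3K9me3 in HOXA, and a common lowest island score, an alternative chosen after seeing the data, gave 1.6. With a −log10 q of at least 10, H3K4me3 was 3.15 in HOXA (apart) and 0.242 in HOXD (negative before). With peaks wholly inside the windows, H3K27ac in HOXA was 4.00 (negative before). Windows shortened by 10 kb gave -1.01 for H3K4me3 in HOXA, and windows lengthened by 50 kb gave 11.7 for H3K9me3 in HOXD, with overlapping conditions. As a percent of the covered length of the list, the differences were -0.0034 and -0.0019 for H3K4me3 in HOXA and HOXC and 0.0047 for H3K27ac in HOXA, each of opposite sign to the length. Leaving out each library in turn gave -0.853 to 0.941 for H3K4me3 in HOXA (negative and apart without untreated replicate 3), -0.415 to 1.38 in HOXC (negative without untreated replicate 2 or 3 or maltonis replicate 1 or 2) and -2.08 to -0.525 in HOXD (apart without untreated replicate 2). For H3K9me3 it gave -9.47 to -3.47 in HOXA (apart without untreated replicate 2) and 3.43 to 17.1 in HOXC (apart without maltonis replicate 3).

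Regions passing in the HOX windows kept their counts within 1.5 times under all fits, with these exceptions. At an FDR of 0.05 with no fold limit, H3K4me3 had 2 higher and 4 lower HOX regions (12.5% and 13.1% of all regions) and H3K27ac 3 and 5 (34.0% and 33.7%). With the called length as an offset 0 H3K27ac regions were lower. Over all regions, the offset left 427 higher and 916 lower against 1637 and 3840. With regions called in at least 3 of 6 libraries, 14 H3K27ac HOX regions were tested. Of these, 1 was higher and 3 were lower, against 8.33% and 18.3% of all regions. In that fit chr12:54398601-54405800 no longer passed (edgeR FDR = 0.0175). Over all H3K4me3 regions, 12 were higher and 273 lower without normalization, against 40 and 51, and over all H3K9me3 regions 36 and 2 became 132 and 39 with DESeq2, 17 and 6 with the length offset, 20 and 1 with merging within 1000 bp, 11 and 0 with the replicate block, 0 and 0 for regions in at least 3 of 6 libraries, and 1 to 12 and 0 without one library, with 1 without untreated replicate 3, maltonis replicate 1 or maltonis replicate 2, so that background is unstable. Regions called in untreated libraries alone numbered 5 for H3K4me3 with the strongest 75% of peaks, and at least 2 of 3 libraries against 0 gave 1 H3K9me3 region in each direction. The shares over all regions were not computed under these alternatives, so these counts cannot be set against the genome. The share of HOXB H3K4me3 bases under H3K27ac in untreated cells was 50.8% with the strongest 75% of peaks. In maltonis cells that alternative and the one on all 3 libraries left no HOXB bases to compare.

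Same-numbered libraries showed no shared deviations (correlations from -0.020 to 0.030), so no pairing by number was seen in these values. That cannot show whether same-numbered libraries were handled together. With a replicate block the H3K4me3 length in HOXD, -1.45 kb, had all 3 differences negative, and the edgeR fit still had 1 H3K27ac HOX region higher and 2 lower.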
